A study of Anopheles gambiae with 18 samples.

Results

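The male and the unfed female midgut of Anopheles gambiae were compared on 3 oligonucleotide arrays, out of 18 arrays in 6 comparisons. All transcripts on the array were taken, and 14123 of 14197 had a value on each of the 3 arrays. The mosquitoes were of the Keele strain and 4 days old, were kept on a sucrose solution, and the females had taken no blood. The remaining 15 arrays compared parts of the female midgut, and only the 3 that set the cardia against the posterior midgut are used below. The cardia is the short muscular valve at the front of the midgut, and the posterior midgut is the wide part behind it that holds the blood meal.

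The midgut of the mosquito is a tube with a single layer of epithelial cells and a sheath of visceral muscle. Both sexes digest sugar in it, while only the female takes blood, which trypsins, aminopeptidases and carboxypeptidases digest inside a chitinous peritrophic matrix. The midgut is also where malaria parasites enter the mosquito and where antimicrobial peptides, lysozymes and recognition proteins act on the gut microbes. Before the first blood meal the female already transcribes the early trypsins, and the question of the comparison was how the gut of such a female differs from that of a male.

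Each array was hybridized with male midgut RNA labeled with Cy5 and female midgut RNA labeled with Cy3, and the dyes were never swapped. A dye effect of a probe and a difference between the sexes therefore cannot be told apart. The values are log2 ratios without signal intensities, so that levels of midgut markers, and with them the labeled tissue, could not be checked, and a transcript with few copies cannot be told from an abundant one. The methods describe 3 biological replica assays, and the number of pooled guts was not given in the sources used here. A ratio compares equal amounts of RNA, so fewer cells of a type and less RNA per cell cannot be told apart.

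A positive log2 ratio was read as higher in the male, from the dyes in the labels and the Cy5/Cy3 ratio in the methods. With this reading several transcripts that the study describes as enriched in the female midgut lay on the male side. Here each array was centred on the median of all transcripts. These transcripts include both carboxypeptidases, both peritrophin precursors, a lysozyme, a fibrinogen-domain protein and a serpin. With each array centred on the study's listed transcripts instead, their means were still positive. The lowest was 0.10 for carboxypeptidase EN020553, with array 3 at -0.44. The immunoglobulin-domain precursor that the study also describes as female-enriched lay on the female side on every array. Another fibrinogen-domain protein it describes so (EN019563) was mixed, at -0.04, 0.40 and -0.20 with all transcripts centred. Of the trypsins it describes so, TRY3, TRY4 and TRY7 were positive on all 3 arrays there and TRY5 was mixed. Centred on the listed transcripts, the mean of TRY3 was 0.23, while TRY4, TRY7 and TRY5 had means of -0.11, -0.14 and -0.62. The direction of these trypsins except TRY3 thus depended on the centring. Whether the dyes ran as labeled, or the published ratios the same way, was not settled here. No values are given here for the prophenoloxidase and the nitric oxide synthase that the study also describes as female-enriched. Those of the transcripts named in this paragraph are given above or with their groups below.

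Zero was set in 2 ways, and the first zero point is the median of all transcripts on the array. In the deposited values this median was -0.67, -0.47 and -0.86 on arrays 1, 2 and 3. The second is the median of the 1937 transcripts in the study's male versus female list, which was chosen on these same arrays and is thus not independent of them. Before centring it lay at -0.10, 0.28 and -0.16, so that values without any centring are close to this second zero point.

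On the scale with all transcripts at 0, the listed transcripts had medians of 0.57, 0.76 and 0.70 on the 3 arrays, and 87.6% to 91.9% of them were positive. The 12186 transcripts outside the list had medians of -0.05, -0.08 and -0.21. Averaged over arrays, the listed transcripts stood at a median of 0.65 and the others at -0.12. A transcript must therefore exceed 0.65 to stand above the typical listed transcript, and any value between 0 and about 0.65 is male on the first zero point and female on the second. Moving to the second zero point lowered the median of all transcripts from -0.02 to -0.69, and the means of 5342 transcripts (37.8%) went from positive to negative. Unless stated otherwise, values are on the first zero point.

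**Figure D1:**
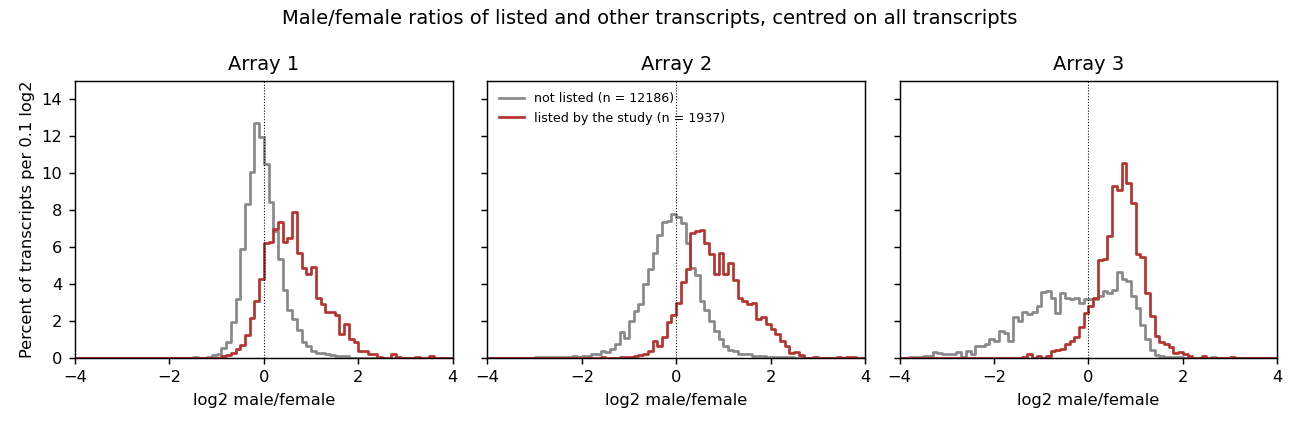
Distribution of the log2 male/female ratio on each of the 3 arrays (x axis) as the percent of transcripts in each step of 0.1 (y axis), with the 1937 listed transcripts in red and the 12186 others in grey. The listed transcripts lie to the right of 0 on all 3 arrays, at medians of 0.57, 0.76 and 0.70, and the other transcripts spread far more widely on array 3 than on array 1.

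The 3 arrays differed in spread. The SD over all transcripts was 0.47 on array 1, 0.68 on array 2 and 1.00 on array 3. On array 3 the unlisted transcripts had a broad lower part and a second peak near the listed ones. Spots of a few signal units give ratios of small whole numbers, and on arrays 1, 2 and 3 the ratio was one with a denominator up to 10 in 7.53%, 20.6% and 19.9% of the transcripts. Among listed transcripts the share was 5.27% to 7.90%. The correlation across transcripts between arrays was 0.43 to 0.58 over all transcripts and 0.54 to 0.67 over the listed ones, in both cases as a description, since transcripts are not replicates.

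Probes for the same transcript often disagreed. For 775 transcripts one row has a name that starts with REP and another does not, and Pearson's r between these rows was 0.29, 0.21 and 0.12 on the 3 arrays. The REP rows correlated at 0.62 to 0.72 from array to array, against 0.22 to 0.36 for the plain rows. Of 123 such transcripts with a 2-fold mean in at least 1 row, 13 had it in both rows. A transcript with a single row, as most have, carries no such check.

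No transcript passed a 2-fold mean change with an adjusted p under 0.05, in either direction (limma on the 3 arrays with Benjamini-Hochberg adjustment over 14123 transcripts, 0% called). The lowest adjusted p was 0.0605, while 3160 transcripts (22.4%) had an unadjusted p under 0.05. At an adjusted p under 0.1 there were 417, of which 401 were higher in the male and 16 in the female. The methods' t-test called 0 after adjustment, and without it 497 were higher in the male and 19 in the female. With the spread taken from all 18 arrays, limma called 143 higher in the male (1.01% of those tested) and 11 higher in the female (0.0779%). Of the 143, 137 were listed, and none of the 11 was.

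The split between the sexes followed the zero point. With the listed transcripts at 0, limma on the same 3 arrays called 75 higher in the male (0.531%) and 4156 higher in the female (29.4%), and with no centring 78 and 4098. With testing limited to the listed transcripts and all transcripts at 0, it called 480 higher in the male (24.8%) and 0 higher in the female. Which sex had more of the higher transcripts thus depended on the zero point.

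A 2-fold mean without a test was reached by 628 transcripts in the male (4.45%) and by 586 in the female direction (4.15%). The similar numbers hid different values. On the male side 76.6% were listed, the median SD was 0.34 and the arrays had 453, 578 and 381 of them past 2-fold. On the female side none was listed, the median SD was 1.11 and the arrays had 7, 253 and 572 past 2-fold, with array 3 the lowest of the 3 in 521. A ratio equal to a small fraction was present in 13.7% of the male and 55.5% of the female side, against 39.8% of all transcripts. Homology text named 296 on the male side and 40 on the female side. The part of weak signal and of array 3 in these numbers was not tested.

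Requiring 2-fold on each of the 3 arrays left 253 transcripts higher in the male (1.79%) and 3 higher in the female (0.0212%). The same side of 0 on all 3 arrays, without a size, was held by 3664 in the male (25.9%) and 3558 in the female direction (25.2%). Of the 253, 233 were listed, 142 had homology text, 123 were among the calls of limma on 18 arrays, and 14 had more than 1 row. Their adjusted p values on the 3 arrays were 0.0605 to 0.0981. With the listed transcripts at 0, 23 of the 253 still had 2-fold on each array, so that a 2-fold male excess of these held on both zero points. The split as a whole did not hold. On the second zero point 23 transcripts were at 2-fold on each array in the male and 550 in the female direction.

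The transcript furthest to the male side was EN015553, at 3.52, 3.67 and 3.08 on the 3 arrays, a mean of 3.42 ± 0.31 (SD, n = 3) or 10.7-fold. All 3 arrays were high, and with the listed transcripts at 0 its mean was still 2.75 (limma, adjusted p = 0.0271). EN015550 followed at 3.56, 3.71 and 2.00, a mean of 3.09 ± 0.95. The neighbouring number EN015551 was ninth from the male side, at 2.71, 2.39 and 1.52. All 3 carry no homology text, and whether their probes cross-hybridize could not be examined without probe sequences. They and the transcripts of the next paragraphs were chosen after their values were seen.

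Among the named transcripts, a receptor precursor with the enzyme code of protein tyrosine kinases (EN027221) was highest, at 2.79, 2.62 and 2.40, a mean of 2.60 ± 0.19. Such receptors carry growth factor signals into the cell. Sorbitol dehydrogenase (EN011284), which oxidizes sorbitol to fructose, was at 1.76, 3.42 and 2.17, a mean of 2.45 ± 0.86. All 3 arrays of both transcripts were past 2-fold, and both stayed so on each array with the listed transcripts at 0.

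Other male-high transcripts carry names of varied origin. The antennal carrier protein AP-2 (EN027407), named for binding small hydrophobic ligands in the antenna, was at 2.82, 2.44 and 1.75. A circadian clock-controlled precursor (EN013446) was at 2.09, 2.69 and 2.07, and SG2 (EN010054), first known from the salivary gland, at 2.26, 2.14 and 2.42. All 3 transcripts stayed past 2-fold on each array with the listed transcripts at 0. A fragment similar to dopamine receptor D4 (EN024095) was at 2.39, 2.23 and 1.69, and one similar to the synaptic vesicle protein SV2 (EN029472) at 2.10, 2.06 and 1.74. The names rest on sequence similarity alone.

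An organic anion transporter (EN011325), of a family that carries hormones and drugs across membranes, was at 2.74, 2.30 and 1.79. UDP-glucuronosyltransferase EN018537, which conjugates sugars to foreign compounds, was at 2.08, 2.51 and 1.47. A splicing factor of the SR type (EN016046) was at 1.87, 2.23 and 1.82, and an odorant-binding protein (EN013682) at 1.79, 2.28 and 1.70. Limma on 18 arrays called each of the named transcripts above, with adjusted p from 0.00244 for EN015553 to 0.0468 for EN015551.

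**Figure D2:**
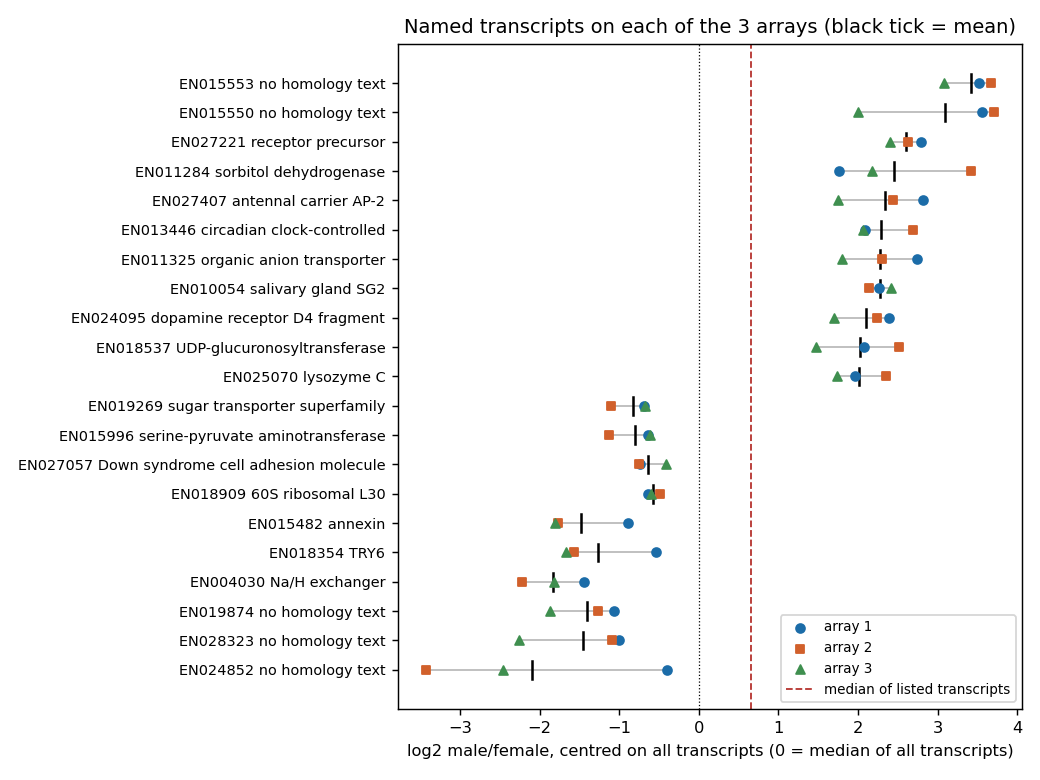
Log2 male/female ratio of 21 named transcripts (x axis) on arrays 1, 2 and 3, with the mean as a black tick, 0 at the median of all transcripts and the dashed line at the median of the listed ones, 0.65. The transcripts of the upper group lie right of the dashed line on all 3 arrays, while array 1 lay nearest to 0 in most of those at the bottom, as for EN024852 at -0.40, -3.43 and -2.46.

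On the female side, the transcript with the steadiest large value was a sodium/hydrogen exchanger (EN004030), a membrane protein that trades sodium ions for protons. Its ratios were -1.45, -2.23 and -1.82, a mean of -1.83 ± 0.39, and limma on 18 arrays called it (adjusted p = 0.0284). It was past 2-fold on each array, as were EN019874 at -1.07, -1.26 and -1.88 and EN028323 at -1.01, -1.09 and -2.26, both without homology text. None of the 3 is in the study's list, and EN019874 held a ratio equal to a small fraction, as weak spots give. The cardia was also lower than the posterior midgut for the exchanger, at a mean of -1.63.

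Other transcripts with names reached a 2-fold mean with array 1 short of it. An annexin (EN015482), of a family that binds membranes through calcium, was at -0.89, -1.77 and -1.80. TRY6 (EN018354), a trypsin, was at -0.54, -1.57 and -1.67, and the serpin SRPN5 (EN010507) at -0.18, -1.62 and -1.80. The lowest mean of all was that of EN029592, at -0.25, -2.92 and -3.52. Arrays 2 and 3 were low and array 1 was nearest to 0, as also for EN024852 at -0.40, -3.43 and -2.46 and EN010480 at -0.77, -2.53 and -2.31. EN024852 and EN010480 held a ratio equal to a small fraction, as weak spots give. Among the low transcripts named below, so did EN010558, EN027182, EN025055 and EN023652, and on the male side EN013682, among others. For the rest, signal levels cannot be read from the ratios.

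No listed transcript was 2-fold lower in the male on every array with all transcripts at 0. With the listed transcripts at 0 there were 7, and these were the listed transcripts with the firmest female side. A member of the sugar transporter superfamily (EN019269) was at -1.26, -1.86 and -1.38 there. Serine-pyruvate aminotransferase (EN015996), an enzyme of amino acid metabolism, was at -1.21, -1.89 and -1.32. Its mean was -1.47 there and -0.80 with all transcripts at 0, so that its direction did not depend on the zero point while its size did. The others were a Down syndrome cell adhesion molecule precursor (EN027057), an immunoglobulin-domain protein, at -1.31, -1.50 and -1.11, the 60S ribosomal protein L30 (EN018909) at -1.21, -1.25 and -1.30, the small nucleolar protein NOP10 (EN015687) at a mean of -1.27, and EN027606 and EN022391 without homology text. In all, 72 listed transcripts were 2-fold higher and 30 were 2-fold lower by the mean on that zero point.

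Gene groups were formed from the homology text, which 1873 of the transcripts carry. No member of any group was called on the 3 arrays, so each group is described by its counts and its median, beside the median of -0.02 for all and 0.65 for listed transcripts. The share at 2-fold male on each array was 1.79% of all transcripts. It was 142 of the 1873 with homology text, from which all groups are drawn, and 233 of the 1937 listed ones. Group shares are to be read against these.

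**Figure D3:**
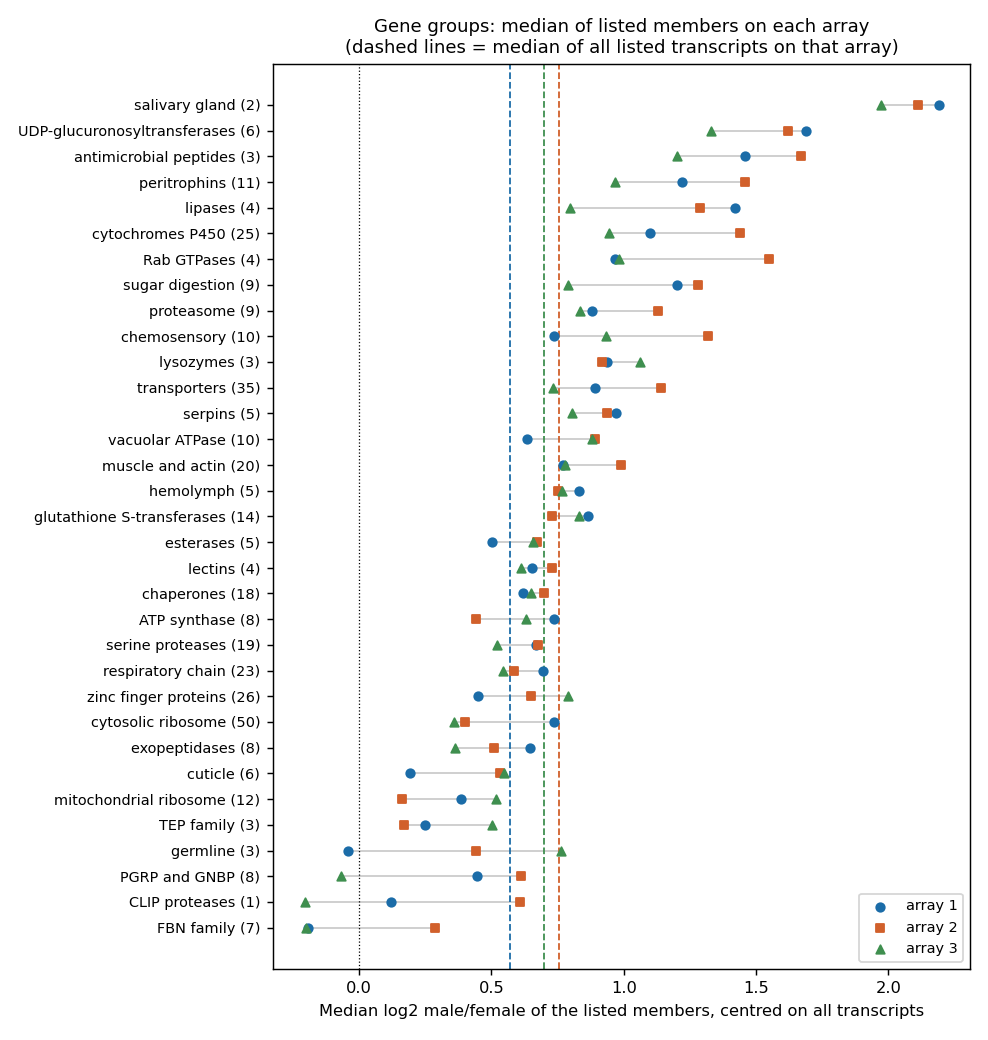
Median log2 male/female ratio (x axis) of the listed members of each gene group on arrays 1, 2 and 3, with the number of listed members in brackets and a dashed line for the median of all 1937 listed transcripts on each array. The salivary, UDP-glucuronosyltransferase and antimicrobial peptide groups lie to the right of the dashed lines on all 3 arrays, and the FBN family lies to the left of them on all 3 arrays, with -0.19 on array 1.

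By number, the cytochromes P450 had the most members at 2-fold on each array among the groups. By share, smaller groups stood higher, such as UDP-glucuronosyltransferases (44.4%) and glutathione S-transferases (29.4%). Cytochromes P450 oxidize insecticides, plant compounds and hormones, and 9 of 38 members (23.7%) were 2-fold higher in the male on each array, with none 2-fold higher in the female. The 25 listed members had a median of 1.14, and 19 of these exceeded the median of all listed transcripts. The group median was 0.72 with all transcripts at 0 and 0.04 with the listed ones at 0, so that the group as a whole had no direction on the second zero point. The highest, EN002973, was at 1.79, 2.18 and 1.67, and EN022746 was at 2.16, 2.24 and 1.18. EN028466 was at 2.00, 2.08 and 1.41 and EN021816 at 1.89, 2.26 and 1.24. EN029062, just below these, was close on all 3 arrays, at 1.73, 1.90 and 1.74, and EN010558 was the lowest of the group, at -0.39, -1.23 and -1.14.

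UDP-glucuronosyltransferases had 4 of 9 members 2-fold higher in the male on each array and limma on 18 arrays called 4. The group median was 1.34, and 0.67 with the listed transcripts at 0. Besides EN018537, EN020582 was at 1.97, 1.87 and 1.56, EN007095 at 1.67, 1.64 and 1.51, and EN023993 at a mean of 1.47. The lowest were EN018780, at a mean of -0.23 that turned positive when array 3 was left out, and EN015987, at a mean of -0.19. Glutathione S-transferases, which conjugate glutathione, had 5 of 17 members at 2-fold on each array, a median of 0.71, and 0.03 with the listed transcripts at 0. EN011661 was at 1.46, 1.69 and 1.56 and EN024412 at 1.34, 1.35 and 1.31, while EN013410 was at -0.33, -0.46 and -0.45. Esterases had none of 12 members at 2-fold on each array and a median of 0.17, or -0.50 on the second zero point.

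**Figure D4:**
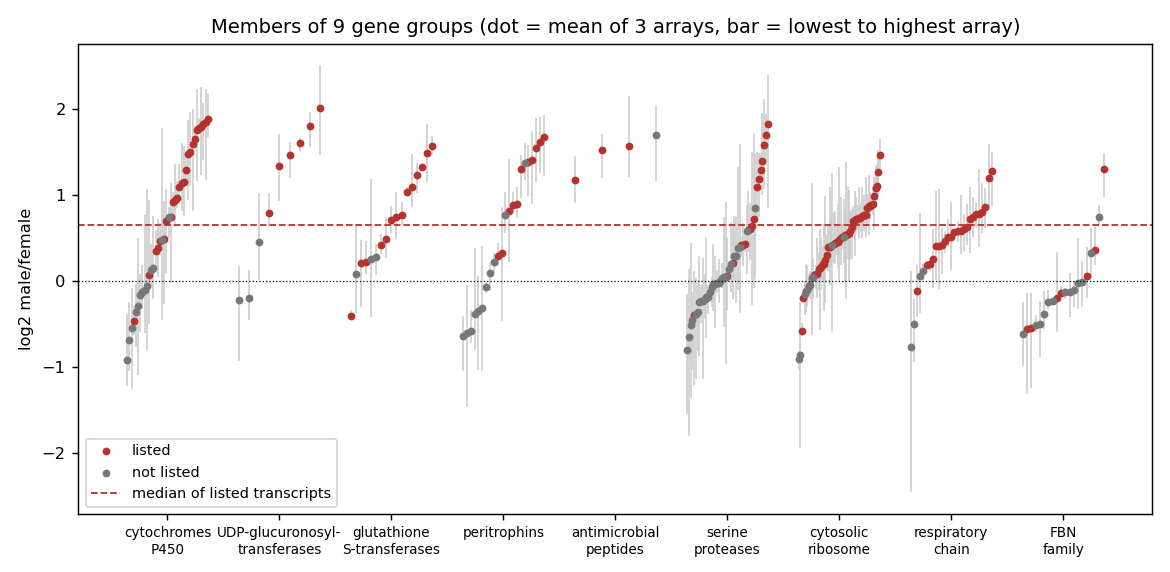
Mean log2 male/female ratio (y axis) of each member of 9 gene groups, with a bar from its lowest to its highest array, listed members in red and others in grey, and the dashed line at the listed median of 0.65. All 4 antimicrobial peptides and the 6 listed UDP-glucuronosyltransferases lie above the dashed line, while most cytosolic ribosomal proteins lie between 0 and about 1.

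Peritrophins, the chitin-binding proteins of the peritrophic matrix, had 4 of 22 members at 2-fold on each array in the male direction. The 11 listed members had a median of 1.30 and the 11 others -0.31. Among the former, EN022855 was at 1.22, 1.94 and 1.89, EN012047 at a mean of 1.61 and EN029111 at a mean of 1.55. The peritrophin precursors that the study names as female were at 1.47, 1.46 and 0.97 (EN013392) and at 0.90, 1.56 and 1.75 (EN023523), and their means were still 0.63 and 0.73 with the listed transcripts at 0. Over the whole group the median was 0.55, and -0.13 on the second zero point.

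Serine proteases were mixed. The group was formed by name, includes members named gastrulation defective and leaves out the trypsins of the next paragraph. It is therefore not a set of digestive enzymes. Of 47 serine proteases, 3 were 2-fold higher in the male on each array, 15 were positive on all 3 arrays and 6 were negative. The median was 0.05, and -0.62 with the listed transcripts at 0. The highest, a member of the trypsin family (EN024348), was at 2.40, 2.23 and 0.85, and serine protease EN014152 was at 1.81, 1.95 and 1.35. Both lay on the male side of both zero points on all 3 arrays.

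The trypsins known from the unfed female were not alike. The study describes TRY3, TRY4, TRY5 and TRY7 as enriched in the female midgut. TRY3 (EN006721) was at 0.67, 1.12 and 0.92, a mean of 0.91 and of 0.23 on the second zero point. TRY4 (EN018384) had a mean of 0.56 that became -0.11, and TRY7 (EN018316) one of 0.54 that became -0.14. TRY5 (EN018317) was at 1.00, -0.46 and -0.37, with array 1 on the other side of 0 from the rest, and its mean of 0.06 became -0.62. Only TRY6, outside the list, was past a 2-fold mean in the female direction. The limma adjusted p of these 5 was 0.113 to 0.926.

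Exopeptidases take amino acids off the ends of peptides. Carboxypeptidase EN021052 was at 1.30, 1.22 and 0.94, a mean of 1.16 and of 0.48 on the second zero point. Carboxypeptidase EN020553 was at 1.17, 0.91 and 0.26, with means of 0.78 and 0.10. EN028219, also a carboxypeptidase, was at -0.77, -0.43 and -2.08, and aminopeptidase EN001203 at 1.32, 0.86 and 0.93. Of the 17 members none was at 2-fold on each array, and the median of 0.39 became -0.28 on the second zero point.

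The enzymes of sugar and fat digestion differed in median between listed and other members. The sugar group was formed by name and also holds a glycoside hydrolase of family 47 (EN005173), whose part in digestion was not checked. Its 9 listed of 24 members had a median of 1.08 and the rest -0.12, where all listed and all other transcripts stood at 0.65 and -0.12. Over all 24 the median was 0.08, and -0.59 on the second zero point. Alpha-glucosidases, the maltases that split sucrose and maltose, held the 3 highest values, with EN011672 at 0.94, 1.99 and 1.43, EN029512 at 1.55, 1.66 and 1.07, and EN008952 at 1.39, 1.78 and 0.84. All 3 were on the male side of both zero points on all 3 arrays. A trehalase (EN008628), which splits the blood sugar of insects, was at a mean of 1.08. A beta-galactosidase (EN027182) was lowest of the group at -0.18, -2.53 and -1.36, and an amylase (EN028264) had a mean of 0.18 that became -0.50 on the second zero point. The 4 listed lipases had a median of 1.24, with EN009935 at 1.41, 1.80 and 0.70, while the median of all 7 was 0.08, and -0.60 on the second zero point.

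Of 68 transporters, 7 were 2-fold higher in the male on each array and 1, the exchanger above, in the female. The median was 0.38, and -0.30 on the second zero point. A cotransporter (EN019885) was at 1.64, 1.84 and 1.16, and a vesicular amine transporter (EN020222), which loads transmitters into vesicles, at 1.97, 1.28 and 1.20. Both facilitated glucose transporters of the SLC2 family among the highest, EN022745 and EN013880, had means of 1.31 and 1.29. The vacuolar ATPase, the proton pump that drives transport and sets the pH of the gut, had a median of 0.74 over 13 subunits and of 0.06 on the second zero point. Subunit EN025824 was at 1.50, 1.46 and 1.15, while EN018502 was at -0.33, -0.35 and -1.46.

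The antimicrobial peptides had the highest median of the immune groups. Cecropin EN011995 was at 1.21, 2.16 and 1.34, gambicin (EN013255) at 1.72, 1.67 and 1.20, and cecropin EN011963 at 1.46, 0.91 and 1.16. All 4 members were positive on all 3 arrays on both zero points, with a median of 1.55 that became 0.87. The fourth, defensin (EN015621), was at 1.17, 1.90 and 2.03, but its rows had means of 2.63 and 0.77. Limma on 18 arrays called none of the 4.

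A lysozyme C (EN025070), of the enzymes that cleave bacterial cell walls, was at 1.96, 2.35 and 1.73, a mean of 2.01 and of 1.34 on the second zero point. Its homology text differs in another sheet of the study's table, so the name is uncertain. EN018439 was at 0.94, 0.92 and 0.87. EN018395 had a mean of 0.47 from rows at 1.06 and -0.11 and became -0.20 on the second zero point, and EN025055 was at 0.01, -0.53 and -2.96, where array 3 alone was low.

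Of the recognition and regulatory families, PGRPS3 (EN012979), a short peptidoglycan recognition protein, was at 1.88, 1.71 and 1.53, and its rows had means of 1.70 and 1.72. It was called by limma on 18 arrays (adjusted p = 0.0237). The membrane receptor transcripts PGRPLC3 (EN029002) and PGRPLC1 (EN010323) had means of 0.90 and 0.85, and PGRPS1 (EN017320) one of -0.20 that turned positive without array 3. The rows of PGRPS1 disagreed, with means of -0.71, -0.50, -0.34 and 0.73. The fibrinogen-domain protein FBNA3 (EN022867) was at 1.45, 1.49 and 0.98, from rows with means of 0.74, 1.29 and 1.89. The FBN family had a median of -0.13 and 11 of 20 members were negative on all 3 arrays. Serpins, inhibitors of serine proteases, ranged from SRP15 (EN024710), at 1.35, 1.61 and 0.94, and serpin 6 (EN010545), at a mean of 1.33, to SRPN5. Thioester-containing proteins, a family that includes the anti-Plasmodium factor TEP1, had none of 12 members at 2-fold on each array. Their median was -0.11, and -0.78 on the second zero point, where 9 were negative on all 3 arrays. TEP1 (EN016857) was at 0.48, 0.56 and 0.81, below the median of the listed transcripts on arrays 1 and 2. CTL4 (EN021166), a C-type lectin, was at 1.04, 1.05 and 1.21, while a second transcript with that name (EN021138) was at -0.33, -0.90 and -0.41.

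Groups that every cell uses were set beside these. The 50 listed of 59 cytosolic ribosomal proteins had a median of 0.54, and 20 of the 50 exceeded the median of all listed transcripts. Their values ranged from EN019453 (S27), at 1.49, 1.65 and 1.26, to EN013205 (S17), at -0.86, -0.81 and -1.03. The group median was 0.48 with all transcripts at 0 and -0.20 with the listed ones at 0. The respiratory chain had a median of 0.52 over 27 members, with 21 positive on all 3 arrays, and -0.16 on the second zero point. The proteasome, the chaperones and the mitochondrial ATP synthase had medians of 0.68, 0.63 and 0.61, and 0.01, -0.05 and -0.06 there. The mitochondrial ribosome had a median of 0.26 over 15 members, and -0.41 there. Over all 59 cytosolic ribosomal proteins the medians on arrays 1, 2 and 3 were 0.67, 0.30 and 0.33. The 50 listed ones had medians of 0.74, 0.40 and 0.36, against 0.57, 0.76 and 0.70 for all listed transcripts. On arrays 2 and 3 they thus lay between the 2 zero points, and on array 1 above both.

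Lists for other cell types were examined beside these groups. Muscle and actin transcripts, for the visceral muscle, had a median of 0.68 over 31 members, ranging from -0.77 to 1.67, with 3 at 2-fold on each array. Actin EN009943 was at 1.44, 2.25 and 1.33 and tropomyosin EN013307 at 1.70, 2.04 and 1.22. Salivary gland names gave 3 members, with SG2 and SG3 (EN009988, at 2.12, 2.08 and 1.52) high and EN026969 at -0.25, 0.10 and -1.65. Chemosensory names gave 21 members from -1.52 to 1.93 with a median of 0.34, of which 3 were at 2-fold on each array, 6 were negative on all 3 and 9 were mixed. The lowest was odorant-binding EN023652, at -0.30, -3.12 and -1.14. Hemolymph names had a median of 0.67 over 9 members, cuticle names 0.14 over 15 and germline names 0.11 over 9, with 1, 0 and 0 members at 2-fold on each array. On the second zero point the muscle median was 0.01, the chemosensory -0.33, the hemolymph -0.01, the cuticle -0.53 and the germline -0.56, and only the salivary median, at 1.23, stayed clearly positive. Since the values are ratios, how much RNA of these cells the samples held could not be read, and their part in the sex difference was not tested.

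The cardia versus posterior arrays share no labeled sample with the sex arrays, and they place the transcripts along the female gut. Limma called 61 transcripts higher in the cardia (0.439%) and 2 higher in the posterior midgut (0.0144%). These 63 calls fell to 0 with the listed transcripts at 0, to 0 without array 1 and to 2 without array 3, so the 61 are used here as a set and not as a firm call. Of the 253 transcripts at 2-fold male on each array, 113 (44.7%) had a 2-fold mean in the cardia direction and 0 in the posterior direction, with a median log2 cardia/posterior ratio of 0.93. Among the 1931 listed transcripts with a value, 9.58% were 2-fold in the cardia direction and the median was 0.18, and among all 13845 it was 2.28% and -0.02, with 2.30% in the posterior direction. The 530 transcripts with a 2-fold female mean and a value had a median of -0.19, with 30 (5.66%) in the posterior direction and 3 in the cardia direction.

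Seen from the other side, 58 of the 61 cardia transcripts were positive on all 3 sex arrays, 31 were at 2-fold male on each, and their median male/female log2 ratio was 1.33. Over all transcripts 25.9% were positive on all 3 arrays and 1.79% at 2-fold on each, and 44 of the 61 belong to the listed transcripts, of which 87.6% to 91.9% were positive on each array. With the listed transcripts at 0, 54 of the 61 still had a positive male/female mean. Pearson's r between both means was 0.52 over the 1931 listed and 0.23 over 11914 other transcripts, as a description over transcripts of the same probes. In both comparisons the first-named sample carried Cy5, so a probe's own dye effect would enter both with the same sign and cannot be told apart from a shared difference.

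Not all male-high transcripts were cardia-high. The receptor precursor EN027221 had a mean cardia/posterior log2 ratio of 2.75, lysozyme EN025070 one of 2.79, the clock-controlled EN013446 one of 2.22, and serine protease EN014152 one of 2.44. The antimicrobial peptides were at 1.44 to 1.89. In contrast, EN015550 was at -0.11, the organic anion transporter EN011325 at -0.45, trypsin-family EN024348 at -0.25 and maltase EN029512 at 0.05. The cytochromes P450 had a median of 0.10 and the UDP-glucuronosyltransferases one of 0.72.

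**Figure D5:**
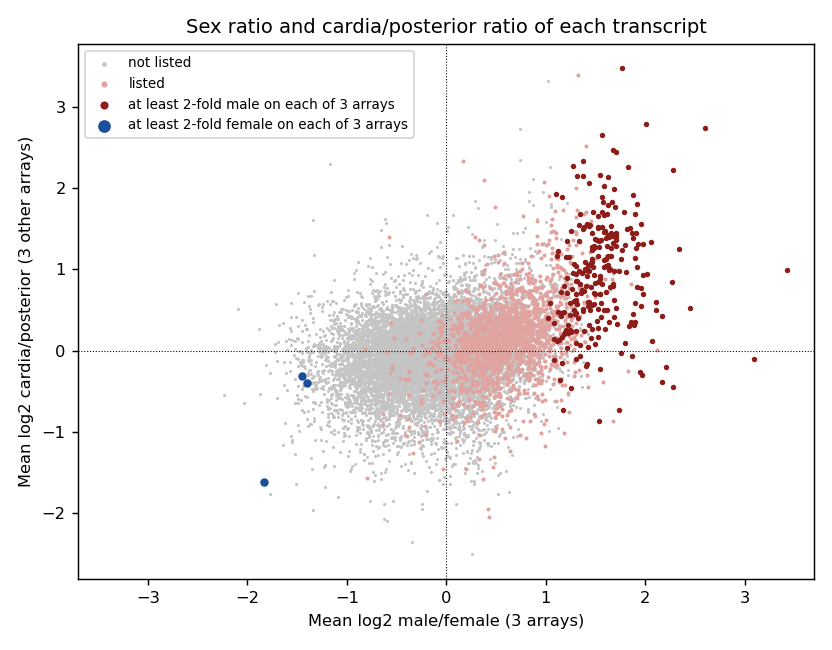
Mean log2 male/female ratio (x axis) against mean log2 cardia/posterior ratio (y axis) of each transcript, with listed transcripts in light red, others in grey, the 253 at 2-fold male on each array in dark red and the 3 at 2-fold female on each array in blue. The dark red points lie mostly above 0 on the y axis, at a median of 0.93, and those with the highest x values include points near 0 on the y axis, such as EN015550 at -0.11.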

How the data were processed

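The data were 3 arrays of male (Cy5) against unfed female (Cy3) midgut. The authors deposited log2 Cy5/Cy3 ratios per spot. The methods state GenePix Pro for reading spots, then a signal cut-off and LOWESS normalization, and the deposited values carry neither. The genome build was not given in the sources used here. On the 3 arrays, 15494, 15489 and 15414 of 15495 rows had a value, the placeholder 16.6096 (1 spot) being taken as missing. Rows were averaged by transcript identifier, and each array was centred on its median. Transcript IDs are shortened to EN and the last digits, and names are the study's homology text. Fold changes the study computed were not used.

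Means were tested against 0 with limma 3.58.1 (R 4.3.3), whose variance prior had 4.42 degrees of freedom. A call needed a 2-fold mean and an adjusted p (Benjamini-Hochberg) under 0.05. Tables were made with Python 3.11.15, pandas 2.3.3 and NumPy 2.4.6. The fit was also run on simulated arrays of equal spread, unlike the arrays here, and no result above rests on that run. Only 3 arrays limit the precision. The transcripts and gene lists were chosen with earlier results of these data known. Named transcripts were to be the largest called ones, but none was called. Transcripts with large means in each direction, members of the lists and transcripts the study names were given instead. Those named first on the female side were not in every case the largest means. The gene group lists, alternative centrings, filters, fits and omitted arrays are compared in the closing section.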

Additional observations from a re-analysis of the deposited data

How the results depend on the processing

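The number of transcripts called between the sexes, 0 with 3 arrays, was 4231 with the listed transcripts at 0, 4176 without centring, 726 with arrays scaled to 1 spread (568 male, 158 female), 154 with the fit on 18 arrays, 480 with only listed transcripts tested, 348 of 8498 without small-fraction ratios (343 male, 5 female) and 516 by the methods' t-test without adjustment. The fit on 18 arrays with the replicate number as a block called 85 (81 male, 4 female). Correlations of deviations between arrays of the same number were -0.27 to 0.29, and of other numbers -0.35 to 0.39. The numbers were not taken to pair the samples. Deviations from a mean of 3 arrays cannot settle whether a number marks a shared batch. Leaving out 1 sex array gave 136 to 281 calls. Without array 1 there were 52 male and 84 female, without array 2 there were 83 and 122, and without array 3 there were 279 and 2, so that female calls came mostly in the pairs with array 3. The count stayed at 0 with robust eBayes, values on at least 2 arrays, the placeholder kept, the median of rows, or either of the row choices below. Cardia versus posterior calls went from 63 to 0 with the listed transcripts at 0, and to between 0 and 80 with 1 array left out (0 without array 1, 80 without array 2, 2 without array 3). The cause of these shifts was not tested.

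Of the 101 named transcripts followed across settings, 5 changed direction with the listed transcripts at 0 or without centring. They were at -0.20 and -0.19 for EN018395, -0.11 and -0.10 for EN018384, -0.62 and -0.61 for EN018317, -0.14 and -0.13 for EN018316, and -0.50 and -0.49 for EN028264. A few transcripts named above, such as TEP1, were not among the 101. With 1 array left out, EN018317 ran from -0.41 (without array 1) to 0.32, EN018780 from -0.43 to 0.12 (without array 3) and EN017320 from -0.43 to 0.10 (without array 3). With plain rows in place of the REP row, a choice made after seeing the data, EN018780 became 0.20 and EN018395 became -0.11. The medians of all 33 gene lists moved by over the spread between arrays with either of the other centrings. Weak spots could not be filtered, since intensities were not used here.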
